A study of Sus scrofa with 36 samples.

Results

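Genes of the cell cycle and of DNA replication were followed in bulk RNA-seq of pig (Sus scrofa) cells. A list of 50 genes was chosen for their known roles in the cycle, with earlier results of these data known. Of these, 49 were among the 20683 genes of the expression tables, and CDK6 was not analysed here. They comprised 9 measured regulators of the G1 phase and of entry into S phase, 13 genes of DNA replication, 21 genes of G2 and mitosis, and 6 inhibitors and checkpoint kinases. All 49 were counted often enough to be tested in every comparison.

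The study measured 36 libraries in 11 groups, to compare clonal induced pluripotent stem cell (iPSC) lines with fibroblasts and to follow the differentiation of such cells. Undifferentiated lines were clone 1 (n = 3, labelled PiPS-EP1 minusPD c4 p11), clone 2 (n = 4, PiPS-EP5 minusPD minusA83 c12 p10) and clone 3 (n = 4, PiPS-EP5 minusPD minusA83 c18 p15). They were set against pig fibroblasts (n = 4). A further line, clone 8, was taken undifferentiated on day 0 after removal of its feeder layer, on day 1 as primitive streak or mesendoderm (medium E8A100ch3), on day 2 as presomitic mesoderm (PSM, medium S1LDN) and on day 3 as somite (medium S2LDN). Clone 8 was also taken as endothelial cells on day 6, beating cardiomyocytes on day 9 and neural progenitors on day 24, with 3 libraries per group. Each line is a single clone. Nothing in the labels ties the libraries of a group to separate cultures, so that a p-value reflects how much these libraries vary, and that variation may be technical.

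The cell cycle is driven by cyclin-dependent kinases (CDKs), which are active only when bound to a cyclin. D-type cyclins with CDK4 or CDK6, and then E-type cyclins with CDK2, phosphorylate the retinoblastoma protein and so free E2F factors, which switch on the genes of DNA synthesis. The origin recognition complex, CDC6 and CDT1 load the MCM helicase on DNA before S phase, and cyclin B with CDK1 starts mitosis. Inhibitor proteins such as p21 and p27 hold CDKs back. Pluripotent stem cells are known for a short G1 phase, and many differentiated cells for a longer one or for leaving the cycle.

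Total estimated counts per library were 24314241 to 69879325 for clones 1 to 3, 6877298 to 36738189 for fibroblasts and 1845333 to 9727315 for clone 8, where low genes are measured less precisely. Levels are given as TPM, a transcript's share of all transcripts scaled to a fixed total and corrected for length. Fold changes are log2 values with their standard error (SE) from edgeR's quasi-likelihood test on counts, and a gene passed at a Benjamini-Hochberg adjusted p under 0.05 over all genes. The labelled identities were checked against marker genes. The library labelled day 9 replicate 2 had 4.28 TPM of TNNT2, the cardiac troponin T gene, where the other day 9 libraries had 4380.2 and 4409 TPM. Conversely, the library labelled day 24 replicate 1 had 5156 TPM of TNNT2, against 3.38 and 2.48 TPM in the other day 24 libraries, and 0.190 TPM of the neural factor gene PAX6 where they had 359.6 and 339 TPM. These 2 libraries went against their labels and were left out of all tests, so that day 9 and day 24 rest on 2 libraries each, and with them put back as labelled edgeR passed 0 of the 49 members between day 9 and day 24 (1 at an unadjusted p under 0.05). The somite markers PAX3 and MEOX1 were low on day 3 (PAX3 at 0.700, 0.540 and 1.30 TPM, and MEOX1 at 2.09, 1.6 and 2.98 TPM). Together with TCF15 they summed to 12.93 to 15.75 TPM on day 3, against 15.96 to 17.77 TPM on day 2 and 10.07 to 13.24 TPM on day 0. Cardiac markers summed to 99.47 to 107.66 TPM on day 3, against 4.49 to 40.95 TPM on day 2 and 6.21 to 10.73 TPM on day 0. The part of this in the member results was not tested.

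Libraries also differed by gene length. On day 9 against day 0, the 20% of genes with the shortest effective length had a median log2 fold change of 0.46 and the longest 20% one of -0.39, and for day 24 against day 0 the values were -0.55 and 0.62. Members sit at both ends of that scale, with MKI67 at the 98.3 and CENPF at the 97.4 percentile of length and UBE2C at 4.51, PCNA at 9.56 and BIRC5 at 9.87. The part of this trend in the results was not tested, but each call was made again on log2(TPM + 1) with limma and with the trend removed in edgeR, 2 alternatives added after the data had been seen. A call that held in all 3 scalings is said to be so, and a call that did not is named. Shares of all genes higher or lower belong to the main edgeR test. Member counts in the other scalings, or in all 3, have no such share beside them and show only which calls held. In bulk samples fewer cells of a type and less RNA per cell cannot be told apart. Reads of overlapping genes may be shared, since nothing states that strand was kept. This touches CCND3 (TAF8), CCNE2 (INTS8), GINS2 (GSE1), RB1 (LPAR6), CCNA2 (EXOSC9), MCM7 (AP4M1), AURKA (CSTF1) and PLK1 (ERN2), and CCND2, ORC1, MCM4, CENPF, CDK1 and AURKB, which overlap a non-coding gene, tRNA genes or a pseudogene. Coordinates below are RefSeq genes on Sscrofa11.1.

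**Figure D1:**
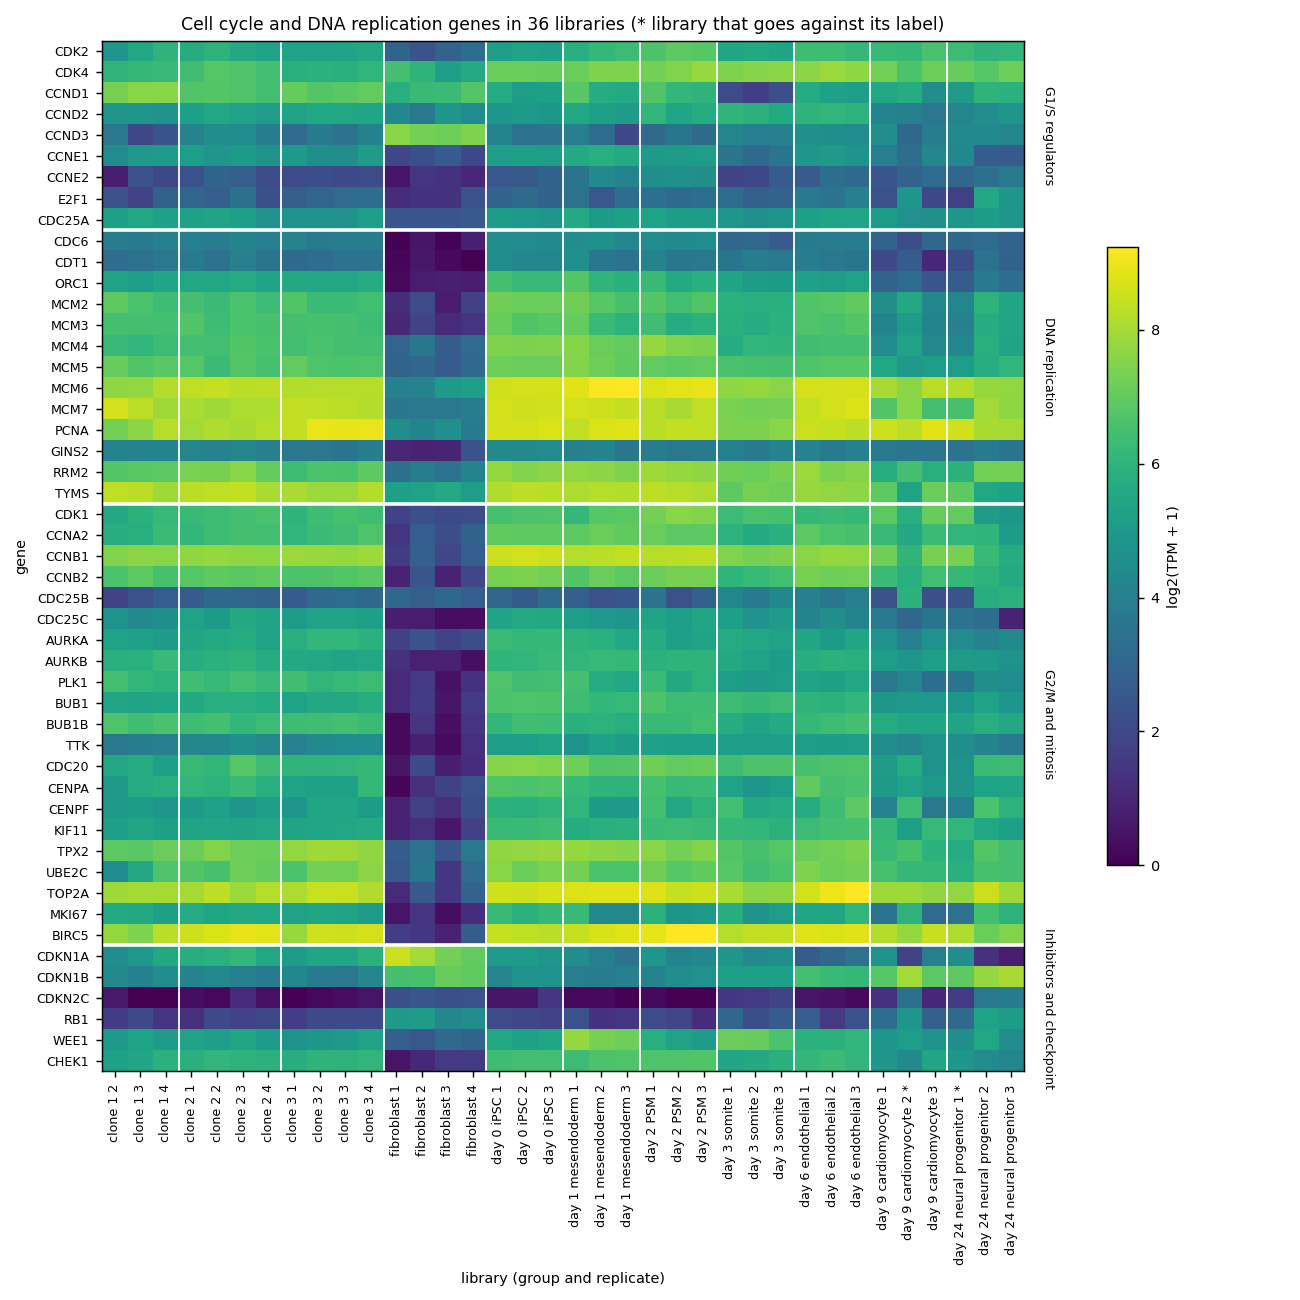
Level of each of the 49 genes (rows, by class) in each of the 36 libraries (columns), as log2(TPM + 1) in colour, with an asterisk at the 2 libraries that went against their labels. The 4 fibroblast columns are dark in the replication and mitosis blocks, and the marked day 9 library resembles the day 24 columns while the marked day 24 library resembles the day 9 columns.

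Clones 1 to 3 (11 libraries) were set against fibroblasts to ask how the levels of these genes differed between them. Cell cycle genes were far higher in the clones, with 42 of 49 members higher and 5 lower, where 38.6% of all 14660 genes tested were higher and 35.9% lower. The median log2 fold change of the members was 3.93, beside 0.11 over all genes. All 13 replication genes and 20 of 21 mitosis genes rose, while 4 of the 6 inhibitors and checkpoint genes and the cyclin gene CCND3 fell. The 42 and 5 calls were the same in all 3 scalings, and with fibroblast libraries 1 and 2 or 3 and 4 alone 42 or 43 members were higher and 5 lower.

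Among the G1/S regulators 7 of 9 rose and 1 fell, with a median log2 fold change of 1.46. CCNE1, cyclin E1, a partner of CDK2 at S phase entry (chromosome 6, 39919541 to 39933224), had a lowest of 20.9, a median of 30.5 and a highest of 35.0 TPM in the clones, against 2.89, 3.77, 5.34 and 2.98 TPM in fibroblasts (log2 fold change 2.82 ± 0.20, adjusted p = 6.03e-10). CDC25A, a phosphatase that activates CDK2, had a lowest of 24.3, a median of 36.4 and a highest of 45.7 TPM in the clones, against 4.53, 4.37, 4.42 and 4.94 TPM in fibroblasts (log2 fold change 2.73 ± 0.16, adjusted p = 5.49e-11). CDK2 itself had a lowest of 28.3, a median of 44.4 and a highest of 64.2 TPM in the clones, against 6.86, 4.12, 6.77 and 9.21 TPM in fibroblasts (log2 fold change 2.71 ± 0.22, adjusted p = 5.41e-09). For these 3 genes no clone library came down to the fibroblast range. CCND3, cyclin D3 (chromosome 7, 37087336 to 37182462), went the other way, with a lowest of 2.93, a median of 13.3 and a highest of 22.0 TPM in the clones, against 191, 158, 145 and 172 TPM in fibroblasts (log2 fold change -4.15 ± 0.24, adjusted p = 4.22e-11). The cyclin D1 and D2 genes rose to a small extent (log2 fold changes 0.60 ± 0.12 for CCND1 and 0.77 ± 0.17 for CCND2), and for these genes the libraries of the groups overlapped. E2F1, an activating E2F factor (1.51 ± 0.34), and CCNE2, cyclin E2 (1.46 ± 0.43), rose as well, again with overlap between the libraries of the groups. CDK4, the kinase partner of the D-type cyclins, did not pass (log2 fold change 0.16 ± 0.19, adjusted p = 0.466).

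The make-up of the D-type cyclin transcripts differed between the groups. In clone libraries CCND1 made up 61.5% to 86.9% of the summed TPM of CCND1, CCND2 and CCND3, and CCND3 made up 1.29% to 13.3%. Fibroblast libraries had 21.1% to 36.0% CCND1 and 56.8% to 71.8% CCND3. The sum of the 3 genes was 135.6 to 226 TPM in clone libraries and 246 to 303 TPM in fibroblast libraries, with no overlap.

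**Figure D2:**
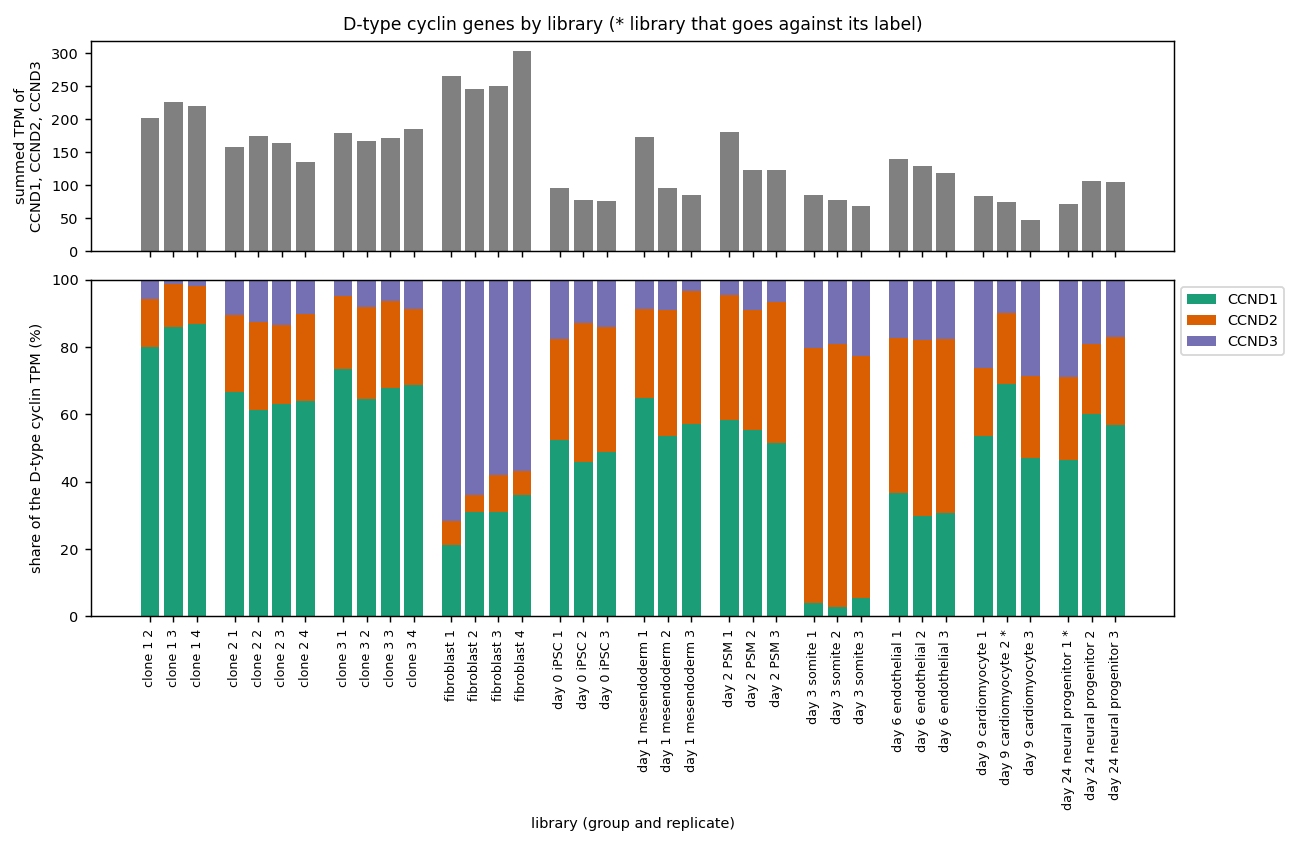
Summed TPM of CCND1, CCND2 and CCND3 per library (upper bars) and the percentage of that sum due to each gene (lower bars), for the 36 libraries, with an asterisk at the 2 libraries that went against their labels. CCND3 takes 56.8% to 71.8% in fibroblasts and CCND2 takes 71.9% to 78.0% on day 3.

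Every replication gene rose, with a median log2 fold change of 3.85. ORC1, the largest subunit of the origin recognition complex (chromosome 6, 159819302 to 159852306), had a lowest of 35.4, a median of 44.7 and a highest of 51.6 TPM in the clones, against 0.190, 0.640, 0.750 and 0.680 TPM in fibroblasts (log2 fold change 6.46 ± 0.25, adjusted p = 2.68e-13). CDC6, a loader of the MCM helicase, had a lowest of 13.2, a median of 14.1 and a highest of 16.8 TPM in the clones, against 0.0300, 0.460, 0.0700 and 0.770 TPM in fibroblasts (log2 fold change 5.73 ± 0.45, adjusted p = 2.57e-09). MCM3, a subunit of that helicase, had a lowest of 80.9, a median of 90.3 and a highest of 105 TPM in the clones, against 1.03, 2.73, 1.17 and 1.68 TPM in fibroblasts (log2 fold change 5.56 ± 0.26, adjusted p = 2.29e-12). All 11 clone libraries were far above all fibroblast libraries for these genes, where fibroblast values rest on 5 to 20 estimated counts per library for ORC1 and 1.01 to 23 for CDC6. The summed TPM of MCM2 to MCM7 was 890.0 to 1032 in clone libraries and 43.1 to 70.7 in fibroblast libraries. PCNA, the sliding clamp of DNA polymerase, rose by a log2 fold change of 3.85 ± 0.21. RRM2, the ribonucleotide reductase subunit that supplies deoxynucleotides, and TYMS, thymidylate synthase, rose by 3.10 ± 0.16 and 2.72 ± 0.14, and the rise of TYMS was the smallest of the 13. Fibroblasts still held 37.2, 39.4, 48.8 and 35.1 TPM of TYMS and 22.5, 17.03, 23.7 and 13.5 TPM of PCNA.

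The mitosis genes had the highest median of the 4 classes, with a log2 fold change of 5.01. BIRC5, which encodes survivin of the chromosomal passenger complex (chromosome 12, 3747276 to 3755214), had a lowest of 176, a median of 374 and a highest of 488 TPM in the clones, against 2.22, 1.85, 0.910 and 5.62 TPM in fibroblasts (log2 fold change 7.05 ± 0.37, adjusted p = 1.06e-11). BUB1B, a spindle checkpoint kinase, had a lowest of 69.3, a median of 82.9 and a highest of 102 TPM in the clones, against 0.180, 1.65, 0.300 and 1.6 TPM in fibroblasts (log2 fold change 6.34 ± 0.43, adjusted p = 4.33e-10). TOP2A, the topoisomerase that untangles sister chromatids, had a lowest of 228, a median of 274 and a highest of 355 TPM in the clones, against 1.12, 4.97, 1.73 and 6.58 TPM in fibroblasts (log2 fold change 6.18 ± 0.41, adjusted p = 3.05e-10). BUB1B and TOP2A were lower in fibroblast libraries 1 and 3 than in libraries 2 and 4, and all fibroblast values were far below the clone range. The proliferation marker MKI67 had a lowest of 33.4, a median of 43.1 and a highest of 50.5 TPM in the clones, against 0.450, 1.67, 0.280 and 1.30 TPM in fibroblasts (log2 fold change 5.34 ± 0.38, adjusted p = 6.52e-10). CDC25B, a phosphatase that activates CDK1 before mitosis, was the only member of the class that did not pass, with a lowest of 2.75, a median of 6.42 and a highest of 8.64 TPM in the clones, against 7.51, 5.90, 7.64 and 5.70 TPM in fibroblasts (log2 fold change -0.22 ± 0.23, adjusted p = 0.402). Summed over the 21 genes, clone libraries held 1531 to 2259 TPM and fibroblast libraries 37.3 to 80.2 TPM.

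Among the inhibitors, CDKN1A, the gene of p21 (chromosome 7, 32354776 to 32363771), had a lowest of 22.4, a median of 45.5 and a highest of 68.6 TPM in the clones, against 361, 251, 157 and 128 TPM in fibroblasts (log2 fold change -2.53 ± 0.24, adjusted p = 2.8e-08). CDKN1B, the gene of p27 (chromosome 5, 59731224 to 59735831), had a lowest of 11.6, a median of 16.2 and a highest of 22.4 TPM in the clones, against 90.6, 93.8, 136 and 127 TPM in fibroblasts (log2 fold change -2.81 ± 0.14, adjusted p = 5.06e-12). RB1, the retinoblastoma gene (chromosome 11, 19186754 to 19317642), had a lowest of 1.35, a median of 3.00 and a highest of 3.26 TPM in the clones, against 30.3, 33.6, 18.2 and 21.9 TPM in fibroblasts (log2 fold change -3.46 ± 0.24, adjusted p = 4.44e-10). CDKN2C, the gene of p18 and an inhibitor of CDK4 and CDK6, had a lowest of 0, a median of 0.240 and a highest of 1.2 TPM in the clones, against 3.75, 4.37, 3.80 and 3.85 TPM in fibroblasts (log2 fold change -4.06 ± 0.82, adjusted p = 0.000244). All 4 were lower in each clone library than in any fibroblast library. The checkpoint kinases rose. CHEK1, which halts the cycle when replication stalls, had a lowest of 37.8, a median of 59.8 and a highest of 67.3 TPM in the clones, against 0.430, 1.09, 1.91 and 1.94 TPM in fibroblasts (log2 fold change 5.53 ± 0.28, adjusted p = 6.9e-12). WEE1, which holds CDK1 inactive until mitosis, had a lowest of 25.6, a median of 33.6 and a highest of 41.8 TPM in the clones, against 6.21, 4.80, 7.96 and 6.91 TPM in fibroblasts (log2 fold change 2.32 ± 0.14, adjusted p = 9.8e-11).

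The wider lists were also chosen with earlier results of these data known. Those of replication and mitosis gave counts of the same kind, and the others were more mixed. Of 40 further tested genes of the replication machinery 39 were higher and 1 lower in the clones, and of 49 further mitosis genes 47 were higher. Among 25 tested pocket proteins, E2F factors and CDK regulators 17 were higher and 6 lower, with a median log2 fold change of 0.90. Among 17 stress and DNA damage response genes 10 were higher and 7 lower, with a median of 0.94. Over all genes 38.6% were higher and 35.9% lower. CDKN2B, the gene of the CDK4 and CDK6 inhibitor p15, averaged 1.63 ± 2.68 TPM in the clones (SD, n = 11) and 16.5 ± 8.80 TPM in fibroblasts (SD, n = 4; log2 fold change -4.46 ± 0.35, adjusted p = 2.76e-09). GADD45B, a stress-induced gene, averaged 12.3 ± 3.99 TPM in the clones and 190.2 ± 27.8 TPM in fibroblasts (log2 fold change -4.05 ± 0.17, adjusted p = 4.33e-13). E2F2 and PKMYT1, a factor and a kinase of the cycle, averaged 1.498 ± 0.373 and 3.27 ± 1.45 TPM in the clones, while E2F2 was at 0 in all 4 fibroblast libraries and PKMYT1 averaged 0.0175 ± 0.0350 TPM there.

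**Figure D3:**
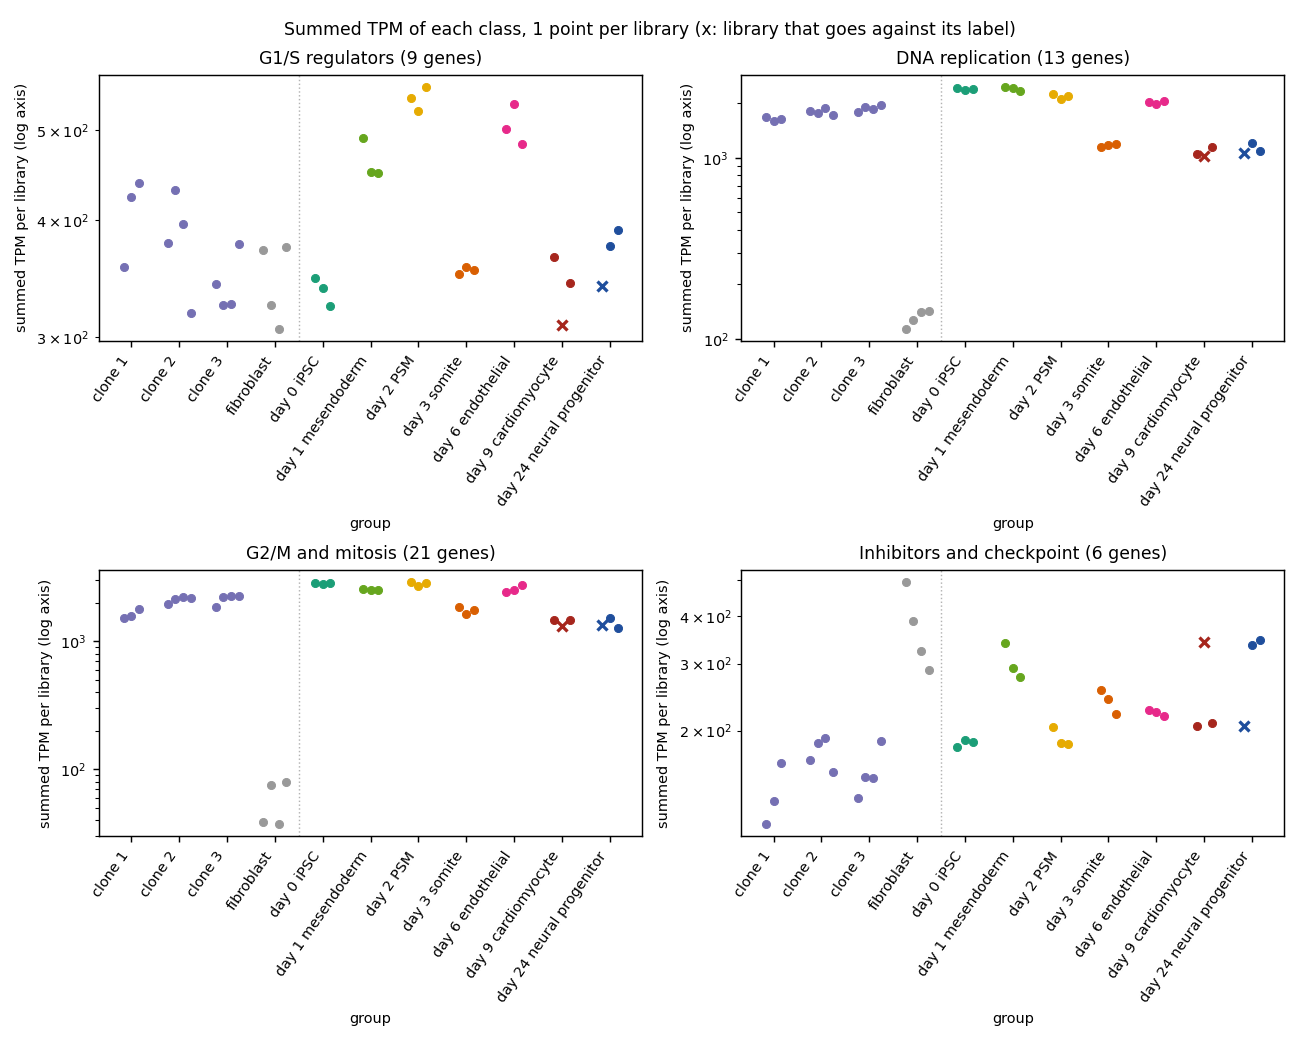
Summed TPM of each class per library (log axis) in the 11 groups, 1 point per library, with a cross for the 2 libraries that went against their labels. The mitosis sum lies at 1531 to 2259 TPM in clones 1 to 3 and 37.3 to 80.2 TPM in fibroblasts, and on day 3 the replication sum lies at 1150 to 1193 TPM, against 2362 to 2430 TPM on day 0.

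The clones were next compared with each other, where few members passed and few of all genes did. For clone 1 against clone 2, 1 member was higher and 1 lower (9.31% of all genes passed, 4.47% higher and 4.84% lower), and 7 members had an unadjusted p under 0.05. For clone 1 against clone 3 the counts were 1 higher and 3 lower (6.7% of all genes passed, 3.12% higher and 3.58% lower), with 12 members at an unadjusted p under 0.05. For clone 2 against clone 3 0 were higher and 1 was lower (4.22% of all genes passed, 2.06% higher and 2.16% lower), with 7 members at an unadjusted p under 0.05, and DESeq2 gave 1 higher and 4 lower.

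CCND1 (chromosome 2, 3621242 to 3633380) was highest in clone 1, with 161, 195 and 190.3 TPM, against 105, 107, 103 and 86.7 TPM in clone 2 (log2 fold change 1.03 ± 0.15, adjusted p = 0.000705). Set against clone 3, with 132, 108, 116 and 127 TPM, clone 1 was higher too (log2 fold change 0.58 ± 0.15, adjusted p = 0.0305), but that call was lost on the TPM scale and without clone 1 replicate 3 or 4 or clone 3 replicate 2, 3 or 4. CCND3 had 11.6, 2.93 and 4.34 TPM in clone 1, against 16.5, 22.0, 21.7 and 13.8 TPM in clone 2 (log2 fold change -1.41 ± 0.35, adjusted p = 0.0213). Clone 1 was below clone 2 in each library, though the call was lost without clone 1 replicate 3 or 4 or clone 2 replicate 3.

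PCNA (chromosome 17, 14137746 to 14142584) had 153, 199 and 296 TPM in clone 1, against 332, 502, 492 and 496 TPM in clone 3 (log2 fold change -1.09 ± 0.22, adjusted p = 0.00829), a call that held in all 3 scalings. Clone 2, with 246, 281, 264 and 296 TPM, was also below clone 3 (log2 fold change -0.92 ± 0.20, adjusted p = 0.0118), a call lost on the TPM scale and without clone 2 replicate 3. AURKA, a spindle kinase, and TPX2, its activator on the spindle, were lower in clone 1 than in clone 3 (log2 fold change -0.77 ± 0.20, adjusted p = 0.0274 for AURKA, and log2 fold change -0.86 ± 0.24, adjusted p = 0.0398 for TPX2). Those calls were lost with the length trend removed. Leaving out any clone 1 library also ended each of them, as did leaving out clone 3 replicate 2 or 3 for both, or clone 3 replicate 1 or 4 for TPX2. PCNA, AURKA and TPX2 lie on chromosome 17, with E2F1, CDC25B and UBE2C. All 6 members on that chromosome had log2 fold changes below 0 against clone 3, with a median of -0.84 for clone 1 and -0.56 for clone 2, beside -0.05 and -0.07 for the 43 other members. Over the 445 tested genes of chromosome 17, the median was -0.55 for clone 1 and -0.52 for clone 2 against clone 3, with 86.1% and 85.2% below 0, and in each it was the lowest of the 19 chromosomes compared. Between clone 1 and clone 2 the median of those genes was -0.02. The part of this in the member calls was not tested.

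The somite series of clone 8 was read step by step, each day against the day before, and day 3 also against day 0. On day 1 most G1/S regulators stood higher than on day 0 on counts, while 2 of 13 replication genes and 4 of 21 mitosis genes passed. Of the 49 members 12 were higher and 4 lower than on day 0, where 39.7% of 13059 genes passed, 19.7% higher and 19.9% lower, and the members' median log2 fold change was 0.06. On the TPM scale the split was 5 higher and 13 lower, where the median of all genes moved by -0.20, and with the length trend removed it was 14 and 4. With the replicate number as a block 8 members were lower. G1/S regulators made up 7 of the 12, and in all 3 scalings 5 members were higher (CCNE2, CDK2, CCNE1, MCM6 and WEE1) and 4 lower (CENPA, CDC20, CDKN1A and CDKN2C).

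CCNE2 had 10.6, 19.2 and 16.6 TPM on day 1, against 4.83, 5.20 and 6.26 TPM on day 0 (log2 fold change 1.75 ± 0.30, adjusted p = 0.000251). CDK2 had 55.3, 70.4 and 78.8 TPM on day 1, against 34.0, 41.0 and 38.4 TPM on day 0 (log2 fold change 1.08 ± 0.21, adjusted p = 0.000631). The groups did not overlap for either gene. CCND1 had 112, 51.2 and 48.6 TPM on day 1, against 49.96, 35.7 and 37.1 TPM on day 0 (log2 fold change 0.98 ± 0.22, adjusted p = 0.00248), with day 1 replicate 1 far above the other 2, and the call was lost on the TPM scale. CDK4, CCND2 and CDC25A, which passed as higher on counts, were lost on that scale as well, as were MCM5, TOP2A and BIRC5. MCM6, a helicase subunit (chromosome 15, 15923638 to 15978587), had 448, 563 and 598 TPM on day 1, against 384, 396 and 401 TPM on day 0 (log2 fold change 0.71 ± 0.17, adjusted p = 0.00415). CENPA, the histone that marks centromeres, had 73.2, 63.6 and 61.7 TPM on day 1, against 105, 98.1 and 105 TPM on day 0 (log2 fold change -0.40 ± 0.13, adjusted p = 0.0187). CDC20, an activator of the anaphase-promoting complex, had 148, 105 and 108 TPM on day 1, against 186, 192 and 179.7 TPM on day 0 (log2 fold change -0.41 ± 0.13, adjusted p = 0.0178). Leaving out single libraries ended calls among the higher members as well. Those of CDK4 and BIRC5 were lost without any 1 of the day 0 libraries or day 1 replicate 2 or 3, that of MCM5 without any 1 of the day 0 libraries or day 1 replicate 1 or 2, that of TOP2A without day 0 replicate 1 or 2 or day 1 replicate 3, and that of CCND2 without day 0 replicate 1. Among the lower ones it ended those of CDC20 (without day 0 replicate 2 or day 1 replicate 2), of CENPA (without day 0 replicate 1 or 3 or day 1 replicate 2) and of CDKN2C (without day 0 replicate 3 or day 1 replicate 3).

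WEE1 had the largest rise of the 49 members on day 1. This kinase gene (chromosome 2, 49880416 to 49894509) had 218, 161 and 148 TPM on day 1, against 44.3, 38.0 and 42.4 TPM on day 0 (log2 fold change 2.21 ± 0.15, adjusted p = 9.92e-09). CDKN1A had 22.4, 14.8 and 10.6 TPM on day 1, against 32.3, 33.5 and 27.4 TPM on day 0 (log2 fold change -0.76 ± 0.20, adjusted p = 0.00735). CDKN2C had 0.160, 0.170 and 0 TPM on day 1, against 0.480, 0.480 and 1.76 TPM on day 0. It rested on 2 estimated counts over the day 1 libraries, against 28 over the day 0 libraries, a ratio per library size of 0.0796 with an exact 95% interval of 0.00919 to 0.316 that covers counting error only. Of the wider lists on day 1, 13 of 40 tested genes of the replication machinery were higher and 2 lower, and 10 of 49 mitosis genes were higher and 8 lower. Of 25 tested pocket proteins, E2F factors and CDK regulators 8 were higher and 4 lower, and of 17 stress and DNA damage response genes 4 were higher and 4 lower. Over all genes 19.7% were higher and 19.9% lower. The stress-induced gene GADD45A averaged 167 ± 18.7 TPM on day 1 and 68.8 ± 3.11 TPM on day 0 (SD, n = 3 each; log2 fold change 1.53 ± 0.18, adjusted p = 5.01e-06). CCNG2, an atypical cyclin known from growth arrest, averaged 38.7 ± 1.28 TPM on day 1 and 16.9 ± 1.58 TPM on day 0 (log2 fold change 1.42 ± 0.18, adjusted p = 1.43e-05). These 2 genes were higher, and 2 other genes lower. GADD45B, a relative of GADD45A, averaged 0.383 ± 0.225 TPM on day 1 and 13.2 ± 0.712 TPM on day 0 (log2 fold change -4.85 ± 0.36, adjusted p = 3.01e-08). PLK2, a polo-like kinase gene, averaged 10.4 ± 2.60 TPM on day 1 and 82.2 ± 2.23 TPM on day 0 (log2 fold change -2.77 ± 0.15, adjusted p = 7.14e-10).

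Between presomitic mesoderm and mesendoderm 2 kinase genes of the CDK family were higher and a cyclin gene and WEE1 lower in all 3 scalings and with the replicate number as a block, while the number of members past the threshold depended on the pairing. Without a block, 3 members were higher and 2 lower on day 2 than on day 1 (edgeR), where 12.4% of all genes were higher and 13.1% lower. Libraries of the same number deviated together on these days, and with the replicate number as a block 9 members were higher and 7 lower, where 33.6% of all genes passed. The block kept all 5 calls. It added CCND2, CCNE2, BUB1B, CENPF, BIRC5 and CDKN1B as higher, with log2 fold changes of 0.39 for BUB1B to 0.59 for CENPF and adjusted p from 0.00119 for CENPF to 0.0475 for CCNE2. As lower it added ORC1, MCM3, MCM7, PCNA and AURKA, with log2 fold changes of -0.43 for MCM3 to -0.30 for PCNA and adjusted p from 0.00972 for MCM3 to 0.0484 for PCNA. On the TPM scale 5 were higher and 3 lower, and with the length trend removed 4 and 6. CDK1 and CDK2 were higher and WEE1 and CCNE1 lower in all 3. CDK1, the mitotic kinase gene (chromosome 14, 64233945 to 64255290), had 157, 191 and 179.9 TPM on day 2, against 70.5, 112 and 117 TPM on day 1 (log2 fold change 0.76 ± 0.21, adjusted p = 0.0115). CDK2 had 99.0, 124 and 112 TPM on day 2, against 55.3, 70.4 and 78.8 TPM on day 1 (log2 fold change 0.66 ± 0.20, adjusted p = 0.025), a call lost without day 1 replicate 1 or day 2 replicate 2 or 3. KIF11, the motor that separates spindle poles, had 77.2, 80.1 and 74.1 TPM on day 2, against 51.5, 57.2 and 60.4 TPM on day 1 (log2 fold change 0.42 ± 0.15, adjusted p = 0.0423), and its call was lost with the length trend removed and without day 1 replicate 1 or 2 or day 2 replicate 2 or 3. CCNE1 had 31.8, 33.1 and 33.9 TPM on day 2, against 49.1, 56.1 and 48.5 TPM on day 1 (log2 fold change -0.65 ± 0.16, adjusted p = 0.00628). WEE1 had 55.3, 39.4 and 33.3 TPM on day 2, against 218, 161 and 148 TPM on day 1 (log2 fold change -2.02 ± 0.15, adjusted p = 4.3e-08). No day 2 library of WEE1 or CCNE1 reached the day 1 range. Of the wider lists on day 2, without a block, 2 of 40 replication genes were higher and 5 lower, and 11 of 49 mitosis genes higher and 2 lower. Of 25 pocket protein, E2F or CDK regulator genes 1 was higher and 4 lower. Of 17 stress and DNA damage response genes 3 were higher and 2 lower, where 12.4% of all genes were higher and 13.1% lower. Among the wider lists GADD45B and PLK2 were higher on day 2 (log2 fold changes 3.99 ± 0.39 and 2.40 ± 0.15), and ARHGAP11A and SKP2 lower (-1.01 ± 0.16 and -0.89 ± 0.17).

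Day 3 was the step at which most members fell. Against day 2, 4 members were higher and 32 lower on day 3, where 51.1% of all genes passed, 26.5% higher and 24.6% lower, and the members' median log2 fold change was -0.78, beside 0.04 over all genes. In all 3 scalings 3 members were higher and 28 lower. Against day 0 the counts were 4 higher and 30 lower (51.7% of all genes passed, 26.2% higher and 25.5% lower), of which 4 and 28 held in all 3 scalings. Those comparisons share the day 3 libraries. The summed TPM of 4 markers of pluripotent cells (POU5F1, NANOG, SOX2 and LIN28A) was 452.89 to 536.57 on day 3, against 997.91 to 1223 on day 2 and 1931.4 to 2136.6 on day 0, with POU5F1 at 13.52 to 17.39 TPM on day 3 and NANOG at 0 in 2 of the 3 libraries. Fibroblast markers summed to 220.27 to 329.16 TPM on day 3, against 24.45 to 42.13 TPM on day 2. The part of either in the member results was not tested.

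Of the 9 G1/S genes 5 were lower on day 3 than on day 2. CCND1 fell furthest, with 3.39, 2.21 and 3.79 TPM on day 3, against 105, 67.7 and 63.0 TPM on day 2 (log2 fold change -4.86 ± 0.28, adjusted p = 1.09e-09). Day 0 libraries had 49.96, 35.7 and 37.1 TPM (log2 fold change -3.72 ± 0.28, adjusted p = 1.78e-08). CCNE2 had 2.64, 3.03 and 5.49 TPM on day 3, against 22.7, 23.8 and 22.6 TPM on day 2 (log2 fold change -2.86 ± 0.33, adjusted p = 2.51e-06). CCNE1 had 11.06, 8.04 and 10.8 TPM on day 3, against 31.8, 33.1 and 33.9 TPM on day 2 (log2 fold change -1.96 ± 0.18, adjusted p = 1.77e-07). For all 3 cyclin genes every day 3 library was below every day 2 library. CCND2 (chromosome 5, 66092483 to 66114575) did not follow. It had 64.3, 60.8 and 48.9 TPM on day 3, against 66.6, 43.6 and 51.4 TPM on day 2 (log2 fold change -0.11 ± 0.17, adjusted p = 0.612) and 28.8, 31.9 and 28.3 TPM on day 0 (log2 fold change 0.96 ± 0.17, adjusted p = 0.000213). As a share of the D-type cyclin TPM, CCND1 was 2.83% to 5.57% on day 3, against 51.4% to 58.4% on day 2, and CCND2 was 71.9% to 78.0% on day 3, against 35.6% to 41.9% on day 2.

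Of the 13 replication genes 10 were lower on day 3 than on day 2, and all 10 held in all 3 scalings. MCM4 (chromosome 4, 79674737 to 79686964) had 51.2, 67.3 and 65.6 TPM on day 3, against 216, 178 and 169.5 TPM on day 2 (log2 fold change -1.83 ± 0.14, adjusted p = 2.63e-08). CDC6 had 7.65, 8.22 and 5.32 TPM on day 3, against 21.03, 19.9 and 21.8 TPM on day 2 (log2 fold change -1.79 ± 0.18, adjusted p = 5.55e-07). MCM6 had 204, 216 and 193 TPM on day 3, against 421, 467 and 494 TPM on day 2 (log2 fold change -1.41 ± 0.18, adjusted p = 6.28e-06). MCM2 to MCM7 together stood at 626 to 640.3 TPM on day 3, against 1162 to 1281 TPM on day 2. GINS2, a subunit of the replicative helicase complex, CDT1 and MCM3 did not pass, and MCM3 was lower with the length trend removed (log2 fold change -0.57, adjusted p = 0.0043). Against day 0 all 13 were lower, of which CDT1 and GINS2 were lost on the TPM scale and without some single libraries (CDT1 without day 0 replicate 1 or 2 or day 3 replicate 1 or 3, GINS2 without day 0 replicate 3 or day 3 replicate 1 or 2).

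Mitosis genes were lower on day 3 in 16 of 21 cases and higher in 1, with 12 and 1 in all 3 scalings. CENPA had 39.4, 27.6 and 35.0 TPM on day 3, against 92.2, 75.6 and 78.2 TPM on day 2 (log2 fold change -1.51 ± 0.13, adjusted p = 1.22e-07). CCNA2, cyclin A2, which acts in S phase and G2, had 61.6, 48.7 and 57.5 TPM on day 3, against 140.4, 118 and 119 TPM on day 2 (log2 fold change -1.39 ± 0.14, adjusted p = 6.16e-07). CDK1 had 80.5, 95.2 and 92.8 TPM on day 3, against 157, 191 and 179.9 TPM on day 2 (log2 fold change -1.27 ± 0.21, adjusted p = 0.000106), and its day 3 level did not differ from day 0 past the threshold (log2 fold change -0.24 ± 0.21, adjusted p = 0.35). CDC25B (chromosome 17, 31910824 to 31929418) rose instead, with 18.03, 13.2 and 18.9 TPM on day 3, against 10.6, 3.89 and 6.14 TPM on day 2 (log2 fold change 1.11 ± 0.26, adjusted p = 0.00227). Calls of CDC25C, another phosphatase of CDK1, and of UBE2C, the ubiquitin-conjugating enzyme of the anaphase-promoting complex, were lost in both other scalings. BUB1 and KIF11 were lost on the TPM scale. Leaving out day 2 replicate 3 ended the call of CDC25C, and leaving out day 2 replicate 2 or day 3 replicate 3 that of KIF11. MKI67 did not pass (log2 fold change -0.25 ± 0.36, adjusted p = 0.581), and with the length trend removed it was lower (log2 fold change -0.83, adjusted p = 0.00439), as were CENPF (-0.86, adjusted p = 3.01e-05) and TTK (-0.60, adjusted p = 0.0199), a kinase of the spindle checkpoint.

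Inhibitor and checkpoint genes moved in both directions on day 3. WEE1 was high again, with 140.5, 134 and 97.5 TPM on day 3, against 55.3, 39.4 and 33.3 TPM on day 2 (log2 fold change 1.34 ± 0.15, adjusted p = 1.6e-06) and 44.3, 38.0 and 42.4 TPM on day 0 (log2 fold change 1.53 ± 0.15, adjusted p = 3.44e-07). CHEK1 had 43.0, 46.6 and 57.5 TPM on day 3, against 101, 104 and 106 TPM on day 2 (log2 fold change -1.31 ± 0.18, adjusted p = 1.84e-05). CDKN1B had 35.0, 36.1 and 35.9 TPM on day 3, against 16.4, 22.2 and 24.8 TPM on day 2, which did not pass (log2 fold change 0.50 ± 0.22, adjusted p = 0.0725), and 18.4, 25.1 and 26.1 TPM on day 0 (log2 fold change 0.61 ± 0.22, adjusted p = 0.0294), a call lost without day 0 replicate 1 or day 3 replicate 2 or 3. RB1 had 7.25, 3.68 and 5.35 TPM on day 3, against 3.36, 2.82 and 1.23 TPM on day 2 (log2 fold change 0.92 ± 0.35, adjusted p = 0.0367), and its call was lost with the length trend removed and without day 2 replicate 1 or 3 or day 3 replicate 1 or 3. CDKN2C had 1.83, 1.98 and 2.71 TPM on day 3, against 0.150, 0 and 0 TPM on day 2. Day 3 rested on 28 estimated counts and day 2 on 1, a ratio of 32.8 with an exact 95% interval of 5.42 to 1340 for counting error only. CDKN2C is 1 of the 4 higher members, and of the 3 in all 3 scalings. By library it had 8, 8 and 12 counts on day 3, 1, 0 and 0 on day 2, and 5, 5 and 18 on day 0. With a minimum count of 10, day 3 could bring it into the test and day 2 could not, so its call is not independent of that filter.

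The wider replication and mitosis lists were mostly lower on day 3, and the 2 other lists moved both ways. Of 40 tested genes of the replication machinery 32 were lower than on day 2 and 0 higher, and of 49 mitosis genes 33 were lower and 1 higher. Of the 25 pocket proteins, E2F factors and CDK regulators 14 were lower and 4 higher, and of the 17 stress and DNA damage response genes 8 were lower and 6 higher. Over all genes 24.6% were lower and 26.5% higher. GADD45B averaged 119 ± 14.96 TPM on day 3 and 6.09 ± 1.33 TPM on day 2 (SD, n = 3 each; log2 fold change 4.03 ± 0.23, adjusted p = 1.1e-09). CDKN2B averaged 6.80 ± 1.87 TPM on day 3, against 0.650 ± 1.13 TPM on day 2 and 0.217 ± 0.0850 TPM on day 0. These 2 genes, a stress-induced gene and a CDK inhibitor gene, were higher while CCNG2 was lower, and it averaged 34.6 ± 6.26 TPM on day 3 and 109.9 ± 14.4 TPM on day 2 (log2 fold change -1.90 ± 0.18, adjusted p = 3.24e-07).

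Endothelial cells of day 6 were compared with day 0 next. Their members split, with 12 higher and 16 lower, where 27.1% of 14169 genes were higher and 24.9% lower, and the members' median log2 fold change was -0.18, beside 0.01 over all genes. In all 3 scalings 10 were higher and 15 lower. The 4 endothelial markers summed to 523.77 to 579.46 TPM on day 6, against 2.81 to 5.51 TPM on day 0. The 4 markers of pluripotent cells still summed to 572.95 to 734 TPM on day 6, against 1931.4 to 2136.6 TPM on day 0. Most of this was LIN28A, at 511.84 to 686.73 TPM on day 6, with SOX2 at 40.26 to 57.48 TPM, POU5F1 at 0.20 to 2.66 TPM and NANOG at 0 in 2 of the 3 libraries. The part of this in the member results was not tested. Regulators of G1 rose in 6 of 9 cases, all in all 3 scalings. CCND2 had 63.8, 67.0 and 61.1 TPM on day 6, against 28.8, 31.9 and 28.3 TPM on day 0 (log2 fold change 1.13 ± 0.17, adjusted p = 1.75e-05). CDK2 had 81.3, 80.9 and 69.4 TPM on day 6, against 34.0, 41.0 and 38.4 TPM on day 0 (log2 fold change 1.02 ± 0.15, adjusted p = 1.28e-05). E2F1 (chromosome 17, 37178587 to 37190118) had 12.9, 10.6 and 15.2 TPM on day 6, against 6.52, 8.26 and 6.26 TPM on day 0 (log2 fold change 0.90 ± 0.23, adjusted p = 0.0027). For these 3 genes all day 6 libraries were above all day 0 libraries. CDC25A was higher too (log2 fold change 0.43 ± 0.14, adjusted p = 0.0158), a call lost without day 0 replicate 3 or day 6 replicate 2 or 3.

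Replication genes were lower in 7 of 13 cases on day 6 and the other 6 did not pass, and 3 of the 6 MCM subunit genes (MCM3, MCM6 and MCM7) lay within 0.2 of 0 on the log2 scale without passing. ORC1 had 37.8, 34.1 and 39.6 TPM on day 6, against 90.9, 75.2 and 73.5 TPM on day 0 (log2 fold change -1.10 ± 0.15, adjusted p = 3.27e-06). MCM4 had 84.9, 88.0 and 88.9 TPM on day 6, against 172, 171 and 173 TPM on day 0 (log2 fold change -0.96 ± 0.12, adjusted p = 1.92e-06). CDT1 had 14.2, 12.1 and 10.9 TPM on day 6, against 22.0, 18.4 and 18.1 TPM on day 0 (log2 fold change -0.65 ± 0.24, adjusted p = 0.0286), and its call was lost on the TPM scale and without day 0 replicate 1, 2 or 3 or day 6 replicate 2 or 3. The call of MCM5 (log2 fold change -0.34 ± 0.12, adjusted p = 0.0255) was lost without any 1 of the day 0 libraries or day 6 replicate 1.

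Mitosis genes on day 6 were lower in 8 cases and higher in 4, of which 8 and 2 held in all 3 scalings. CDC25C had 16.6, 22.7 and 16.6 TPM on day 6, against 40.4, 49.3 and 48.1 TPM on day 0 (log2 fold change -1.26 ± 0.25, adjusted p = 0.000248). PLK1, the polo-like kinase of mitosis (chromosome 3, 22537814 to 22550901), had 40.2, 37.3 and 44.9 TPM on day 6, against 102, 83.8 and 86.5 TPM on day 0 (log2 fold change -1.13 ± 0.13, adjusted p = 3.72e-07). AURKA had 42.4, 32.0 and 42.5 TPM on day 6, against 77.4, 70.9 and 70.6 TPM on day 0 (log2 fold change -0.95 ± 0.14, adjusted p = 8.34e-06). These kinase and phosphatase genes of mitosis were lower in each day 6 library than in any day 0 library. CDC25B rose, with 15.4, 11.5 and 14.5 TPM on day 6, against 7.34, 5.20 and 8.20 TPM on day 0 (log2 fold change 1.12 ± 0.22, adjusted p = 0.000325). Calls of CENPF, a kinetochore protein, and TOP2A as higher were lost in both other scalings and without any 1 of the day 0 libraries or day 6 replicate 2 or 3, and CENPF had 52.0, 82.7 and 119.9 TPM on day 6. Those of BIRC5 (without day 0 replicate 3 or day 6 replicate 3) and CDK1 (without day 0 replicate 2 or 3 or day 6 replicate 3) were lost without single libraries.

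The inhibitors of day 6 parted ways. CDKN1B had 87.4, 76.3 and 71.0 TPM on day 6, against 18.4, 25.1 and 26.1 TPM on day 0 (log2 fold change 1.76 ± 0.16, adjusted p = 9.89e-09). CDKN1A had 5.52, 7.58 and 10.01 TPM on day 6, against 32.3, 33.5 and 27.4 TPM on day 0 (log2 fold change -1.93 ± 0.23, adjusted p = 7.23e-07). WEE1 had 58.9, 59.6 and 66.2 TPM on day 6, against 44.3, 38.0 and 42.4 TPM on day 0 (log2 fold change 0.55 ± 0.15, adjusted p = 0.00468). The ranges of the groups did not overlap for these 3 genes. Of the wider lists on day 6, 6 of 40 replication genes were higher and 8 lower, and 4 of 49 mitosis genes higher and 19 lower. Of 25 pocket protein, E2F or CDK regulator genes 7 were higher and 6 lower. Of 17 stress and DNA damage response genes 2 were higher and 5 lower, where 27.1% of all genes were higher and 24.9% lower. Among the wider lists CDKN1C, the gene of the CDK inhibitor p57, averaged 23.1 ± 9.86 TPM on day 6 and 3.12 ± 0.806 TPM on day 0 (SD, n = 3 each; log2 fold change 2.85 ± 0.32, adjusted p = 3.43e-07). MYBL2, a transcription factor of proliferating cells, averaged 69.5 ± 8.05 TPM on day 6 and 316 ± 39.1 TPM on day 0 (log2 fold change -2.16 ± 0.13, adjusted p = 3.71e-11). The antiproliferative gene BTG1 was higher (2.05 ± 0.13) and the stress-response gene SESN2 lower (-2.09 ± 0.28).

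In cardiomyocytes of day 9 (n = 2) most replication and mitosis genes were lower than on day 0 (n = 3). In total 10 members were higher and 26 lower, where 33.5% of 14169 genes were higher and 33.1% lower, and the members' median log2 fold change was -0.60, beside -0.01 over all genes. On the TPM scale the split was 4 higher and 35 lower, where the median of all genes moved by -0.31, and with the length trend removed 8 and 27. In all 3 scalings 4 were higher (CDK2, CDK1, CDKN1B and RB1) and 26 lower. With the 2 doubtful libraries put back as labelled, 3 were higher and 17 lower. Fibroblast markers summed to 517.5 and 439.8 TPM on day 9, against 53.28 to 130.93 TPM on day 0, and the markers of pluripotent cells to 3.40 and 5.97 TPM on day 9. The part of either in the member results was not tested.

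CDK2 had 73.3 and 94.3 TPM on day 9, against 34.0, 41.0 and 38.4 TPM on day 0 (log2 fold change 1.58 ± 0.17, adjusted p = 6.28e-08). CCND3, CCNE2 and CDK4 passed as higher on counts and were lost on the TPM scale, CDK4 also with the length trend removed, and CCNE2 without day 0 replicate 1 or 2 or day 9 replicate 3. CCNE1 had 14.3 and 18.1 TPM on day 9, against 34.7, 37.0 and 34.5 TPM on day 0 (log2 fold change -0.67 ± 0.19, adjusted p = 0.00364), a call lost without day 9 replicate 1. CCND2 had 16.9 and 11.6 TPM on day 9, against 28.8, 31.9 and 28.3 TPM on day 0 (log2 fold change -0.64 ± 0.22, adjusted p = 0.0138), a call lost without day 9 replicate 3.

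Of the replication genes 10 of 13 were lower on day 9, in all 3 scalings. ORC1 had 6.54 and 4.55 TPM on day 9, against 90.9, 75.2 and 73.5 TPM on day 0 (log2 fold change -3.49 ± 0.21, adjusted p = 1.08e-11). CDT1 had 3.25 and 1.06 TPM on day 9, against 22.0, 18.4 and 18.1 TPM on day 0 (log2 fold change -2.84 ± 0.35, adjusted p = 4.99e-07). MCM4 had 20.97 and 19.2 TPM on day 9, against 172, 171 and 173 TPM on day 0 (log2 fold change -2.66 ± 0.16, adjusted p = 1.01e-11). MCM6 stood apart from the other subunits, with 259.6 and 305 TPM on day 9, against 384, 396 and 401 TPM on day 0 (log2 fold change -0.03 ± 0.14, adjusted p = 0.845), and on the TPM scale it was lower (log2 fold change -0.48, adjusted p = 0.000951). PCNA had 369 and 452 TPM on day 9, against 386, 401 and 424 TPM on day 0 (log2 fold change 0.48 ± 0.14, adjusted p = 0.0058), and its call as higher was lost in both other scalings and without day 9 replicate 3. The ratio of PCNA to MCM2 in TPM was 16.2 and 24.8 on day 9, against 2.56 to 3.05 on day 0.

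Of the mitosis genes 13 of 21 were lower on day 9, in all 3 scalings. PLK1 had 11.5 and 9.09 TPM on day 9, against 102, 83.8 and 86.5 TPM on day 0 (log2 fold change -2.71 ± 0.17, adjusted p = 1.92e-11). MKI67 (chromosome 14, 137266622 to 137296312) had 10.5 and 8.28 TPM on day 9, against 76.3, 58.6 and 70.0 TPM on day 0 (log2 fold change -2.45 ± 0.21, adjusted p = 2.85e-09). CDC20 had 33.8 and 24.9 TPM on day 9, against 186, 192 and 179.7 TPM on day 0 (log2 fold change -2.25 ± 0.16, adjusted p = 1.63e-10). CDK1 went the other way, with 119 and 134 TPM on day 9, against 93.9, 99.1 and 102 TPM on day 0 (log2 fold change 0.73 ± 0.15, adjusted p = 0.00021), although its partner gene CCNB1, cyclin B1, had 151 and 161 TPM on day 9, against 367, 387 and 367 TPM on day 0 (log2 fold change -0.82 ± 0.15, adjusted p = 9.17e-05). Calls of BIRC5 (lost in both other scalings and without day 0 replicate 2 or 3 or day 9 replicate 3) and KIF11 (lost on the TPM scale and without any 1 of the day 0 libraries or day 9 replicate 3) as higher did not hold, nor did that of AURKB, the passenger complex kinase, as lower without day 0 replicate 2 or 3 or day 9 replicate 1.

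CDKN1B had 114 and 119.7 TPM on day 9, against 18.4, 25.1 and 26.1 TPM on day 0 (log2 fold change 2.77 ± 0.17, adjusted p = 1.41e-11). RB1 had 8.65 and 6.04 TPM on day 9, against 3.45, 3.02 and 2.72 TPM on day 0 (log2 fold change 1.55 ± 0.32, adjusted p = 0.000237). CHEK1 had 28.5 and 42.4 TPM on day 9, against 82.5, 88.4 and 86.1 TPM on day 0 (log2 fold change -0.81 ± 0.18, adjusted p = 0.000692). The first 2 genes were higher and the kinase gene lower in both day 9 libraries than in any day 0 library, and CDKN1A did not pass (log2 fold change -0.23 ± 0.24, adjusted p = 0.418). Of the wider lists, 22 of 40 replication genes and 27 of 49 mitosis genes were lower on day 9, with 5 and 8 higher. Of 25 pocket protein, E2F and CDK regulator genes 9 were higher and 11 lower, and of 17 stress and DNA damage response genes 7 were higher and 7 lower. Over all genes 33.5% were higher and 33.1% lower. MYBL2 averaged 15.7 ± 2.51 TPM on day 9 (SD, n = 2) and 316 ± 39.1 TPM on day 0 (SD, n = 3; log2 fold change -3.90 ± 0.17, adjusted p = 1.49e-13). E2F7, a repressor of the E2F family, averaged 0.915 ± 0.177 TPM on day 9 and 21.2 ± 4.21 TPM on day 0 (log2 fold change -4.10 ± 0.25, adjusted p = 1.22e-11). These 2 transcription factor genes were lower and 2 CDK inhibitor genes higher on day 9 than on day 0, though CDKN2B stayed at a low level. CDKN2D, the gene of the CDK inhibitor p19, averaged 27.8 ± 6.39 TPM on day 9 and 5.29 ± 1.27 TPM on day 0 (log2 fold change 2.80 ± 0.33, adjusted p = 3.35e-07), and CDKN2B averaged 1.31 ± 0.113 TPM on day 9 and 0.217 ± 0.0850 TPM on day 0 (log2 fold change 2.86 ± 0.58, adjusted p = 0.000219).

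On counts, neural progenitors of day 24 (n = 2) had the most lower members of all comparisons with day 0 (n = 3). Here 5 members were higher and 37 lower, where 68.3% of 14169 genes passed, 34.4% higher and 33.8% lower, with a median log2 fold change of -1.44 over the members and 0.00 over all genes. On the TPM scale the split was 8 higher and 33 lower, where the median of all genes moved by 0.28. That is fewer lower members than the 35 of day 9 on that scale. With the length trend removed it was 6 and 38. In all 3 scalings 5 were higher (E2F1, CDC25B, CDKN2C, RB1 and CDKN1B) and 33 lower. The 2 libraries differ in depth, replicate 3 having 1845333 counts and replicate 2 having 7120672. The markers of pluripotent cells summed to 249.54 and 290.45 TPM on day 24, of which SOX2, a gene also known from neural progenitors, gave 241.41 and 275.46 TPM, while POU5F1 had 0 and 2.49 TPM. The part of this in the member results was not tested.

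E2F1 had 45.1 and 28.8 TPM on day 24, against 6.52, 8.26 and 6.26 TPM on day 0 (log2 fold change 2.05 ± 0.25, adjusted p = 3.56e-07). CCNE1 had 5.66 and 5.16 TPM on day 24, against 34.7, 37.0 and 34.5 TPM on day 0 (log2 fold change -3.06 ± 0.24, adjusted p = 8.09e-10). CCND2 (log2 fold change -0.70 ± 0.23, adjusted p = 0.0109) and CDK4 (log2 fold change -0.50 ± 0.16, adjusted p = 0.00857) passed as lower, but these calls were lost in both other scalings and without day 24 replicate 2. All 13 replication genes were lower, in all 3 scalings. ORC1 had 13.0 and 8.94 TPM on day 24, against 90.9, 75.2 and 73.5 TPM on day 0 (log2 fold change -3.21 ± 0.21, adjusted p = 3.44e-11). TYMS (chromosome 6, 105642730 to 105660279) had 46.1 and 38.5 TPM on day 24, against 284, 320.2 and 309.5 TPM on day 0 (log2 fold change -3.20 ± 0.17, adjusted p = 2.12e-12). MCM4 had 56.4 and 41.5 TPM on day 24, against 172, 171 and 173 TPM on day 0 (log2 fold change -2.17 ± 0.15, adjusted p = 1.49e-10). No day 24 library of these 3 genes reached the day 0 range.

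Of the mitosis genes 18 of 21 were lower on day 24 and 1 higher, of which 17 and 1 held in all 3 scalings. CDC25C had 8.94 and 0.880 TPM on day 24, against 40.4, 49.3 and 48.1 TPM on day 0 (log2 fold change -3.17 ± 0.36, adjusted p = 1.72e-07). The lower day 24 value came from replicate 3, the library with 1845333 counts. CCNB1 (chromosome 16, 47338239 to 47348385) had 74.6 and 52.3 TPM on day 24, against 367, 387 and 367 TPM on day 0 (log2 fold change -2.90 ± 0.18, adjusted p = 1.18e-11). AURKA (chromosome 17, 56954838 to 56972435) had 16.2 and 20.1 TPM on day 24, against 77.4, 70.9 and 70.6 TPM on day 0 (log2 fold change -2.70 ± 0.19, adjusted p = 1.35e-10). CDC25B was the 1 that rose, with 53.1 and 60.97 TPM on day 24, against 7.34, 5.20 and 8.20 TPM on day 0 (log2 fold change 2.68 ± 0.24, adjusted p = 4.63e-09). MKI67, with 85.1 and 62.3 TPM on day 24, against 76.3, 58.6 and 70.0 TPM on day 0, did not pass on counts (log2 fold change -0.27 ± 0.19, adjusted p = 0.209), and with the length trend removed it was lower (log2 fold change -1.22, adjusted p = 1.07e-06). CENPF did likewise (log2 fold change 0.04 ± 0.24, adjusted p = 0.887, and -0.83, adjusted p = 0.00286 with the trend removed). The call of TOP2A as lower was lost on the TPM scale.

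**Figure D4:**
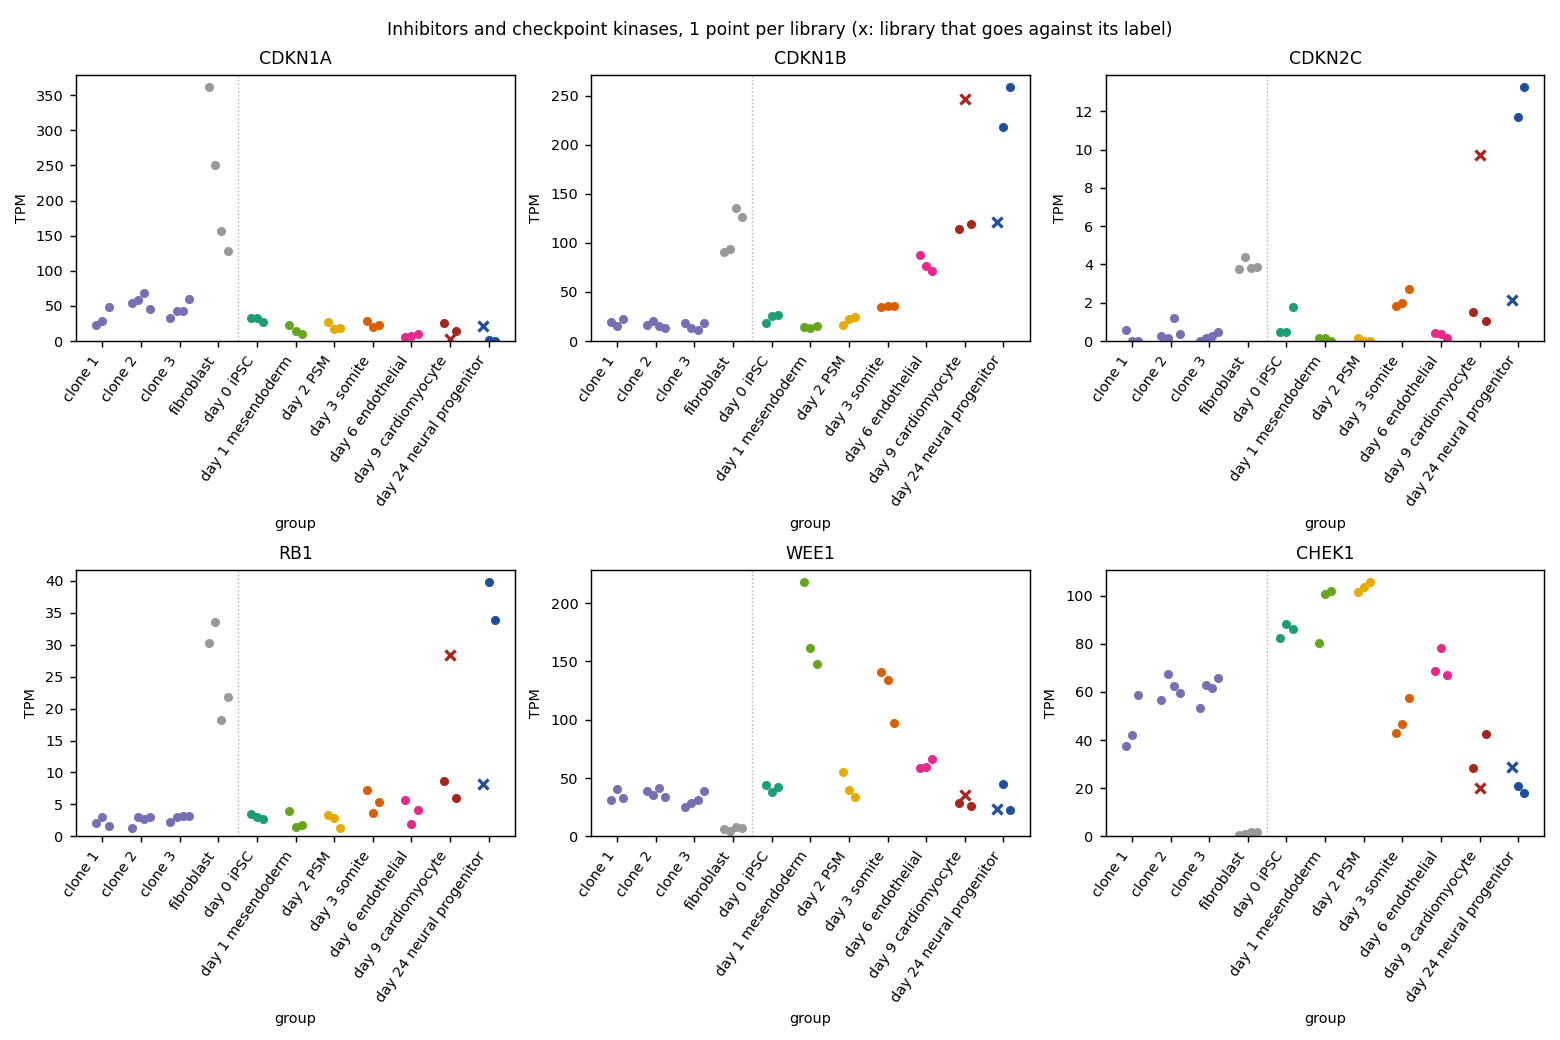
TPM of CDKN1A, CDKN1B, CDKN2C, RB1, WEE1 and CHEK1 in the 11 groups, 1 point per library, with a cross for the 2 libraries that went against their labels. CDKN1B lies at 218 and 259 TPM on day 24 and 114 and 119.7 TPM on day 9, against 18.4 to 26.1 TPM on day 0, and WEE1 lies at 148 to 218 TPM on day 1.

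All 6 inhibitor and checkpoint genes passed on day 24. CDKN1B had 218 and 259 TPM on day 24, against 18.4, 25.1 and 26.1 TPM on day 0 (log2 fold change 2.97 ± 0.17, adjusted p = 4.67e-12). RB1 had 39.8 and 33.9 TPM on day 24, against 3.45, 3.02 and 2.72 TPM on day 0 (log2 fold change 3.17 ± 0.30, adjusted p = 1.19e-08). CDKN2C had 11.7 and 13.3 TPM on day 24, against 0.480, 0.480 and 1.76 TPM on day 0 (log2 fold change 3.26 ± 0.53, adjusted p = 1.62e-05). For these 3 inhibitor genes each day 24 library was above each day 0 library. CDKN1A was lower, with 1.52 and 0.610 TPM on day 24, from 9 and 1 estimated counts, against 32.3, 33.5 and 27.4 TPM on day 0 (log2 fold change -4.94 ± 0.41, adjusted p = 1.6e-09). The checkpoint kinase genes were lower too. CHEK1 had 20.8 and 18.03 TPM on day 24, against 82.5, 88.4 and 86.1 TPM on day 0 (log2 fold change -2.50 ± 0.22, adjusted p = 3.13e-09). WEE1 had 44.5 and 22.2 TPM on day 24, against 44.3, 38.0 and 42.4 TPM on day 0 (log2 fold change -0.75 ± 0.19, adjusted p = 0.00139), a call lost on the TPM scale. Of the wider lists 36 of 40 replication genes and 43 of 49 mitosis genes were lower and 2 and 1 higher. Of 17 stress and DNA damage response genes 13 were lower and 2 higher. Of 25 pocket protein, E2F and CDK regulator genes 14 were lower and 8 higher, where 33.8% of all genes were lower and 34.4% higher. CCNG2 averaged 209 ± 17.2 TPM on day 24 (SD, n = 2) and 16.9 ± 1.58 TPM on day 0 (SD, n = 3; log2 fold change 3.23 ± 0.21, adjusted p = 2.39e-11). CDKN2D averaged 47.4 ± 7.11 TPM on day 24 and 5.29 ± 1.27 TPM on day 0 (log2 fold change 2.74 ± 0.34, adjusted p = 5.95e-07). Both of these were higher, and GADD45B and MYBL2 were lower. GADD45B averaged 1.10 ± 0.587 TPM on day 24 and 13.2 ± 0.712 TPM on day 0 (log2 fold change -3.68 ± 0.40, adjusted p = 9.17e-08). MYBL2 averaged 44.3 ± 5.81 TPM on day 24 and 316 ± 39.1 TPM on day 0 (log2 fold change -3.19 ± 0.17, adjusted p = 1.49e-12).

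Day 9 cardiomyocytes and day 24 neural progenitors were compared with each other in the same model, 2 libraries each. The counts were 26 members higher and 13 lower on day 9, where 34.4% of all genes were higher and 33.3% lower. Scaling mattered here, and the shortest 20% of genes had a median log2 fold change of 1.02 and the longest 20% one of -1.03. On the TPM scale, where the median of all genes moved by -0.58, 15 were higher and 21 lower, and with the length trend removed 23 and 11. In all 3 scalings 15 were higher and 8 lower, counts with no share over all genes beside them.

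Of the higher members, CCNE1 had 14.3 and 18.1 TPM on day 9, against 5.66 and 5.16 TPM on day 24 (log2 fold change 2.40 ± 0.26, adjusted p = 9.48e-08). TYMS had 124 and 137 TPM on day 9, against 46.1 and 38.5 TPM on day 24 (log2 fold change 2.42 ± 0.18, adjusted p = 3.06e-10). PCNA had 369 and 452 TPM on day 9, against 263 and 256 TPM on day 24 (log2 fold change 1.50 ± 0.16, adjusted p = 9.91e-08). MCM6 was higher as well (log2 fold change 1.21 ± 0.15, adjusted p = 6.28e-07), so that a cyclin and 3 genes of DNA synthesis stood higher in both day 9 libraries. CDK1 had 119 and 134 TPM on day 9, against 33.4 and 29.0 TPM on day 24 (log2 fold change 2.73 ± 0.19, adjusted p = 1.63e-10). CCNB1 had 151 and 161 TPM on day 9, against 74.6 and 52.3 TPM on day 24 (log2 fold change 2.08 ± 0.18, adjusted p = 3.23e-09). BIRC5 had 287 and 343 TPM on day 9, against 141 and 178 TPM on day 24 (log2 fold change 1.82 ± 0.18, adjusted p = 2e-08). All 7 calls held in all 3 scalings.

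Of the lower members, E2F1 had 4.05 and 2.89 TPM on day 9, against 45.1 and 28.8 TPM on day 24 (log2 fold change -2.65 ± 0.31, adjusted p = 2.12e-07). RRM2 had 53.6 and 53.8 TPM on day 9, against 152 and 156 TPM on day 24 (log2 fold change -0.66 ± 0.16, adjusted p = 0.000887). CDC25B had 4.17 and 3.77 TPM on day 9, against 53.1 and 60.97 TPM on day 24 (log2 fold change -3.07 ± 0.30, adjusted p = 1.61e-08). For these 3 genes both day 9 libraries lay below both day 24 libraries, and these calls and that of MKI67 held in all 3 scalings. MKI67 had 10.5 and 8.28 TPM on day 9, against 85.1 and 62.3 TPM on day 24 (log2 fold change -2.17 ± 0.22, adjusted p = 2.95e-08), and with the length trend removed it was closer to 0 (log2 fold change -0.74, adjusted p = 0.00122). MCM2, MCM3, MCM4, MCM7 and CENPF were lower on counts and on the TPM scale but not with the trend removed, and CDT1 was lower in all 3. Leaving out day 24 replicate 2 ended the calls of those 4 MCM genes, of CDT1 and of CCND3. Leaving out day 9 replicate 3 ended those of MCM2, MCM7, CDT1, CDC6 and BUB1, leaving out day 9 replicate 1 those of MCM4 and MCM7, and leaving out day 24 replicate 3 those of BUB1 and WEE1. CDK4, CCND3 and AURKB, higher on counts, were lost in both other scalings, and UBE2C, higher on counts, was lower with the trend removed (log2 fold change -0.56, adjusted p = 0.0208). CDK2, CDC25A, CDC6, GINS2, BUB1, BUB1B and WEE1 were lost on the TPM scale.

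**Figure D5:**
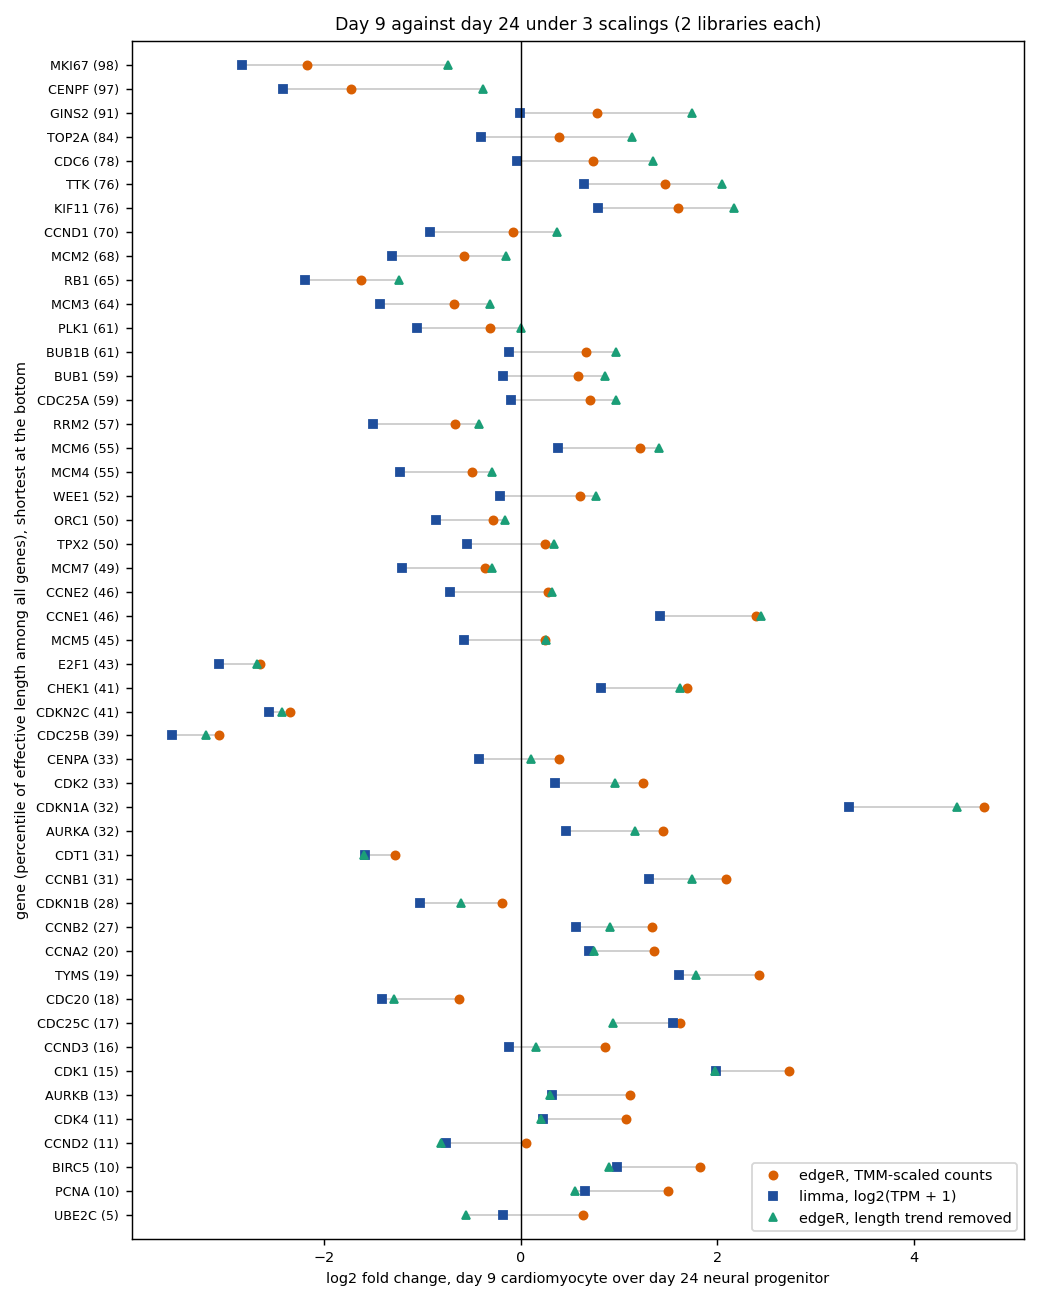
Log2 fold change of day 9 over day 24 (2 libraries each) for the 49 genes, ordered by effective gene length with the shortest at the bottom, in 3 scalings (circles for TMM-scaled counts, squares for log2(TPM + 1), triangles for counts with the length trend removed). Squares sit to the left of the circles, UBE2C lies at 0.64 on counts and at -0.56 with the trend removed, and MKI67 stays below 0 in all 3.

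Inhibitors differed between the 2 lineages too, p21 higher on day 9 and RB1 and p18 higher on day 24. CDKN1A had 25.3 and 14.8 TPM on day 9, against 1.52 and 0.610 TPM on day 24 (log2 fold change 4.71 ± 0.43, adjusted p = 7.91e-09). RB1 had 8.65 and 6.04 TPM on day 9, against 39.8 and 33.9 TPM on day 24 (log2 fold change -1.62 ± 0.32, adjusted p = 0.000181). CDKN2C had 1.53 and 1.06 TPM on day 9, against 11.7 and 13.3 TPM on day 24 (log2 fold change -2.34 ± 0.59, adjusted p = 0.00159). CHEK1 had 28.5 and 42.4 TPM on day 9, against 20.8 and 18.03 TPM on day 24 (log2 fold change 1.69 ± 0.23, adjusted p = 1.97e-06). All 4 calls held in all 3 scalings. CDKN1B did not pass on counts (log2 fold change -0.19 ± 0.18, adjusted p = 0.34) but was lower on day 9 on the TPM scale (log2 fold change -1.02, adjusted p = 0.000261) and with the length trend removed (log2 fold change -0.60, adjusted p = 0.00403). The library labelled day 9 replicate 2 had 2.76 TPM of CDKN1A, 28.4 TPM of RB1 and 61.2 TPM of MKI67, close to the other day 24 libraries. The library labelled day 24 replicate 1 had 22.1 TPM of CDKN1A, 8.25 TPM of RB1 and 10.3 TPM of MKI67, in the day 9 range. Of the wider lists, 22 of 40 replication genes were higher on day 9 than on day 24 and 6 lower, and 25 of 49 mitosis genes higher and 8 lower. Of 25 pocket protein, E2F or CDK regulator genes 7 were higher and 9 lower. Of 17 stress and DNA damage response genes 12 were higher and 2 lower, where 34.4% of all genes were higher and 33.3% lower. Among the wider lists UHRF1, a factor that keeps DNA methylation through replication, averaged 20.8 ± 4.86 TPM on day 9 and 149 ± 46.2 TPM on day 24 (SD, n = 2 each; log2 fold change -2.05 ± 0.20, adjusted p = 2.64e-08), and E2F7 was lower too (-2.98 ± 0.27). GADD45B averaged 28.2 ± 2.76 TPM on day 9 and 1.10 ± 0.587 TPM on day 24 (log2 fold change 5.21 ± 0.40, adjusted p = 4.82e-10), and CDKN2B averaged 1.31 ± 0.113 TPM on day 9 and 0.0250 ± 0.0354 TPM on day 24.

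Across clone 8 the summed levels of the replication and mitosis genes were lower on days 3, 9 and 24 than on days 0, 1, 2 and 6. Such sums weigh abundant genes most. On the TPM scale the median of all genes moved by -0.31 on day 9 and 0.28 on day 24 against day 0. The part of this in the sums was not tested. Replication genes summed to 2362 to 2430 TPM on day 0, 2334 to 2470 TPM on day 1, 2117 to 2261 TPM on day 2, 1150 to 1193 TPM on day 3 and 1985 to 2065 TPM on day 6. They summed to 1045 and 1152 TPM on day 9 and to 1200.2 and 1093 TPM on day 24, where the ranges of day 3, day 9 and day 24 met or overlapped. Mitosis genes summed to 2812 to 2869 TPM on day 0, 2510 to 2580 TPM on day 1, 2728 to 2910 TPM on day 2, 1650 to 1850 TPM on day 3 and 2419 to 2758 TPM on day 6. They summed to 1463 and 1473 TPM on day 9 and to 1526 and 1264 TPM on day 24. The lowest of these sums remained above the highest fibroblast value of 142 TPM for replication and 80.2 TPM for mitosis, levels set side by side from 1 table without a test.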

How the data were processed

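LM-seq libraries of 36 samples were measured. The authors deposited estimated counts per gene (expected counts from RSEM) and TPM (transcript shares scaled to a fixed total), for which the submitters' processing notes name bcl2fastq, Bowtie 1.2.3, RSEM 1.2.3 and the pig assembly Sscrofa11.1, with no strand setting given in the sources used here. Rounding of the counts to integers moved 0.00661% of the total. They were tested with edgeR 4.0.16 (R 4.3.3; TMM scaling, a minimum count of 10, quasi-likelihood F-test, Benjamini-Hochberg adjustment over all genes, threshold 0.05), and a standard error is the log2 fold change divided by the square root of F. There were 3 models, holding clones 1 to 3 with fibroblasts (15 libraries, 14660 genes), days 0 to 3 (12 libraries, 13059 genes), and days 0, 6, 9 and 24 (10 libraries, 14169 genes). The 2 libraries that went against their labels were left out of the last. No column of the tables was left unused.

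Alternatives were DESeq2 1.42.0, RLE scaling, no filter on low counts, the replicate number as a block, each library left out, fibroblast libraries in pairs, all 21 clone 8 libraries in 1 model and the 2 libraries put back. Limma 3.58.1 on log2(TPM + 1), and edgeR with each library's trend with gene length removed, were chosen after seeing the data. The members and the wider lists were chosen with earlier results of these data known. Named were, per comparison and class, the 3 members that moved most in whichever direction was commoner (fewer where fewer passed) and 1 in the other, every inhibitor or checkpoint gene that passed, and from the wider lists the 2 that rose and the 2 that fell most. Other members are named where a scaling or a single library ended their call or to complete a complex.

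Whether equal replicate numbers pair libraries was checked by correlating their deviations from the group means. Between day 2 and day 1 all 3 pairs were above 0.1 (0.406, 0.148 and just over 0.100), so the blocked calls stand beside that result. Between day 1 and day 0 the values were 0.281, 0.131 and 0.0947, with only the last below 0.1. Genes and coordinates were matched by symbol to RefSeq. No sequence is shown, and promoter motifs were not searched.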

Additional observations from a re-analysis of the deposited data

Results flagged for a closer look

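Within groups of 4 libraries, 9 of 147 sets of values had 1 library far from the other 3. The criterion is set to flag about 1 in 20 sets by chance, so a count of this size carries little weight. Clone 2 replicate 2 was low for MCM7 (243.37 TPM) and high for TPX2 (177.85 TPM). Clone 3 replicate 4 was high for CDC25A (34.78 TPM) and CENPA (69.38 TPM), and clone 3 replicate 1 was low for PCNA (332.5 TPM) and BIRC5 (221.92 TPM). Fibroblast replicate 4 was high for E2F1 (3.87 TPM) and GINS2 (4.14 TPM), and fibroblast replicate 2 for CDKN2C (4.37 TPM).

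For 5 genes the change against day 0 was above 0 and past the threshold on day 9 and below 0 and past it on day 24 on TMM-scaled counts, with the difference between the days tested in the same edgeR model. The log2 fold change of day 9 over day 24 was 2.7266 for CDK1, 1.8239 for BIRC5, 1.5959 for KIF11, 1.496 for PCNA and 1.0683 for CDK4. CDK1 alone kept both calls against day 0 and the call between the days in all 3 scalings. BIRC5, KIF11 and PCNA kept the call between the days and the day 24 call in all 3, but lost the day 9 call on the TPM scale, where the day 9 value was below 0 for BIRC5 (-0.062) and KIF11 (-0.087), and BIRC5 (-0.020) and PCNA lost it also with the length trend removed. Their day 9 calls were also lost without day 9 replicate 3, that of BIRC5 without day 0 replicate 2 or 3 and that of KIF11 without any 1 of the day 0 libraries. CDK4 lost all its calls in both other scalings, with day 9 over day 24 at 0.22 on the TPM scale and 0.21 with the length trend removed, and its day 24 call without day 24 replicate 2.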

How the results depend on the processing

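Higher and lower counts are members of 49 unless all genes are named. Over all alternatives, 7474 of the member values kept direction and side of the threshold, 319 fell below it, 175 passed it and 19 reversed; the cause of a change was not tested. With DESeq2, clone 1 against clone 2 had 2 lower (2288 of all genes passed), clone 1 against clone 3 had 3 higher and 7 lower (1917 of all genes), clone 2 against clone 3 had 1 higher and 4 lower (1271 of all genes), and day 2 against day 1 had 5 higher and 5 lower. With all 21 clone 8 libraries in 1 model, day 1 against day 0 had 4 higher and 1 lower (1808 of all genes), day 2 against day 1 had 0 higher and 1 lower (1053), day 3 against day 2 had 2 higher (3374), and day 3 against day 0 passed 3346 genes. That model holds the 2 libraries that went against their labels.

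On log2(TPM + 1) with limma, counts were 2 lower for clone 1 against clone 2, 0 higher for clone 1 against clone 3, 1 higher and 0 lower for clone 2 against clone 3 (1052 of all genes), 5 higher and 13 lower for day 1, 5 higher for day 2 against day 1, 4 higher for day 9 and 8 higher for day 24 against day 0, and 15 higher and 21 lower for day 9 against day 24. With the length trend removed they were 3 higher for clone 1 against clone 2, 2 higher and 1 lower for clone 1 against clone 3, and 6 lower for day 2 against day 1. With the 2 libraries put back, day 6 had 2 higher and 4 lower (1652 of all genes), day 9 had 3 higher and 17 lower (4260) and day 24 had 3 higher (4396), and day 9 against day 24 had 0 higher and 0 lower (0 of all genes).

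Reversed values (log2) on the TPM scale were, for day 9 against day 0, -0.087 for KIF11 and -0.062 for BIRC5, and for day 9 against day 24, -0.76 for CCND2, -0.12 for CCND3, -0.096 for CDC25A, -0.041 for CDC6, -0.58 for MCM5, -0.0036 for GINS2, -0.18 for BUB1, -0.12 for BUB1B, -0.42 for CENPA, -0.54 for TPX2, -0.18 for UBE2C and -0.21 for WEE1. With the length trend removed they were -0.020 for BIRC5 on day 9 and -0.83 for CENPF on day 24 against day 0, and -0.81 for CCND2 and -0.56 for UBE2C for day 9 against day 24. With the 2 libraries put back KIF11 on day 9 was -0.0097 against day 0.

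With the replicate number as a block, clone 1 against clone 3 had 0 higher and day 1 against day 0 had 8 lower. Day 2 against day 1, where the deviations of all pairs correlated above 0.1, had 9 higher and 7 lower. The block moved no other count of member calls by over 1.5 times. In the other comparisons not every pair of equal numbers correlated above 0.1, though for day 1 against day 0 the lowest was 0.0947.

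Leaving out each library in turn, clone 1 against clone 2 had 1 to 2 higher and 0 to 1 lower (643 to 1757 of all genes), clone 1 against clone 3 had 0 to 1 higher and 1 to 3 lower (435 to 1332), and clone 2 against clone 3 had 0 to 1 lower (330 to 549). Day 1 against day 0 had 7 to 15 higher and 2 to 10 lower (3924 to 6452 of all genes), and day 2 against day 1 had 1 to 6 higher and 2 to 6 lower. Day 9 against day 24 had 8 to 13 lower. Clones against fibroblasts had 42 to 43 higher and 5 to 5 lower. Where this left 1 library in a group, its spread was assumed to be that of the other groups. Clone 8 libraries, of lower depth, limit genes such as CDKN2C and CDKN1A, which rest on few counts.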

Other observations

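Of 130 tested genes of the wider lists, 7 were higher and 3 lower in clone 1 than in clone 2. Over all genes 4.47% were higher and 4.84% lower. For clone 1 against clone 3, 1 was higher and 4 lower, where 3.12% of all genes were higher and 3.58% lower. For clone 2 against clone 3, 0 were higher and 2 lower, where 2.06% of all genes were higher and 2.16% lower. CDKN2B, the gene of p15, averaged 4.69 ± 3.89 TPM in clone 1 and 0.235 ± 0.0695 TPM in clone 2 (SD, n = 3 and 4; log2 fold change 2.76 ± 0.50, adjusted p = 0.00377 in edgeR), and 0.725 ± 0.875 TPM in clone 3 (SD, n = 4; log2 fold change 2.73 ± 0.51, adjusted p = 0.00496 for clone 1 over clone 3). E2F5, a repressive E2F factor, averaged 39.3 ± 11.98 TPM in clone 1 and 79.5 ± 13.0 TPM in clone 2 (log2 fold change -0.84 ± 0.20, adjusted p = 0.0184), and was lower than in clone 3 too (log2 fold change -0.94 ± 0.21, adjusted p = 0.0127). MDM2, a ubiquitin ligase gene, averaged 96.3 ± 7.33 TPM in clone 2 and 142 ± 18.2 TPM in clone 3 (log2 fold change -0.73 ± 0.12, adjusted p = 0.00204), and MYBL2 was lower in clone 2 as well (log2 fold change -0.80 ± 0.21, adjusted p = 0.0397).

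On day 3, PLK3, a stress-responsive polo-like kinase gene, averaged 1.11 ± 0.445 TPM on day 3, against 3.99 ± 0.867 TPM on day 2 (log2 fold change -2.06 ± 0.43, adjusted p = 0.000799) and 5.49 ± 0.180 TPM on day 0 (SD, n = 3 each; log2 fold change -2.31 ± 0.42, adjusted p = 0.000218). The ratio of CDK1 to CCNB1 in TPM was 0.787 and 0.831 on day 9 and 0.447 and 0.555 on day 24, against 0.256 to 0.279 on day 0. The ratio of BIRC5, a short gene, to MKI67, a long one, was 27.3 and 41.4 on day 9 and 1.66 and 2.85 on day 24, against 4.45 to 5.64 on day 0. In the library labelled day 9 replicate 2 that ratio was 3.57, and in the library labelled day 24 replicate 1 it was 26.5.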
